A study of Mus musculus with 8 samples.

Results

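The genes described here make the machinery with which a mature osteoclast, the multinucleated cell that dissolves bone, removes mineral and matrix. They are the 10 entries of the count table with the symbols Acp5, Ctsk, Mmp9, Car2, Slc4a2, Ckb, Snx10, Plekhm1, Rab38 and Calcr, of 27133 genes in all. They were chosen by symbol, and all 10 passed the filter on low counts that left 17028 genes for testing. RNA came from the parietal bone, a flat bone of the skull roof, of C57BL6J mouse pups. Of 8 libraries, 4 were controls whose pups received an isotype antibody, and 4 came from pups that received a blocking antibody to CSF1R, the growth factor receptor on which monocytes, macrophages and osteoclast precursors depend. Antibody was given transcranially in both groups at postnatal days 2, 4 and 6, and perfusion and collection followed at day 9. The treatment was meant to deplete myeloid cells. The labels give neither an antibody clone nor a dose. Since they do not tie each library to its own pup, the spread behind each p-value may be partly technical. Numbers 2 to 5 name the isotype libraries and 7 to 10 the anti-CSF1R ones, as in their titles.

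Osteoclasts form by fusion of myeloid precursors that need CSF1 and RANKL. The mature cell seals off a patch of bone, and its ruffled border, a folded membrane built by fusion of secretory lysosomes, releases acid and enzymes onto that patch. Carbonic anhydrase makes the protons and bicarbonate, a proton pump moves the protons out, and an anion exchanger on the opposite membrane removes the bicarbonate. Cathepsin K then digests the demineralised collagen. Calcitonin, acting on its receptor at the cell surface, stops resorption.

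Library totals lay between 57.5 M and 69.1 M counts. All 11 osteoblast markers examined were detected in every library, with summed levels of 151370 to 301009 CPM (counts scaled to equal library size), as bone would give. Most of that sum was the collagen genes Col1a1 and Col1a2, at 104519 and 102382 of 215336 CPM in isotype 2. Isotype 3 and 4 stood apart from the other 6 libraries. GC-rich transcripts were over-represented in both: over genes, GC content and deviation from the gene's median over libraries had a Spearman rho of 0.650 and 0.640, against -0.372 to -0.0290 elsewhere. Their mitochondrial share was 0.847% and 0.855% of counts, beside 2.03% to 2.80% in the rest. Results are therefore also given against isotype 2 and 5 alone, and under an offset fitted per library to GC content and length (the offset, below).

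Acp5, Ctsk and Calcr fell after CSF1R blockade, and Car2 was the 1 member whose groups overlapped. Of the 10 members, 3 fell and 0 rose (edgeR quasi-likelihood test, adjusted p under 0.05 over all genes), where 0.822% of the 17028 genes tested were called lower and 0.846% in either direction. The other 6 members apart from Car2 had log2 fold changes from -1.47 to -0.99 and did not pass (edgeR adjusted p = 0.0710 to 0.165). In 9 of the 10 members, every anti-CSF1R library lay below every isotype library, where 8.34% of tested genes did so and 6.61% lay wholly higher. The median log2 fold change of the members was -1.25, beside 0.03 over all genes tested. It was -0.74 against isotype 2 and 5 alone, beside 0.00278 over all genes. In bulk RNA, fewer osteoclasts and less of these transcripts per osteoclast cannot be told apart.

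**Figure D1:**
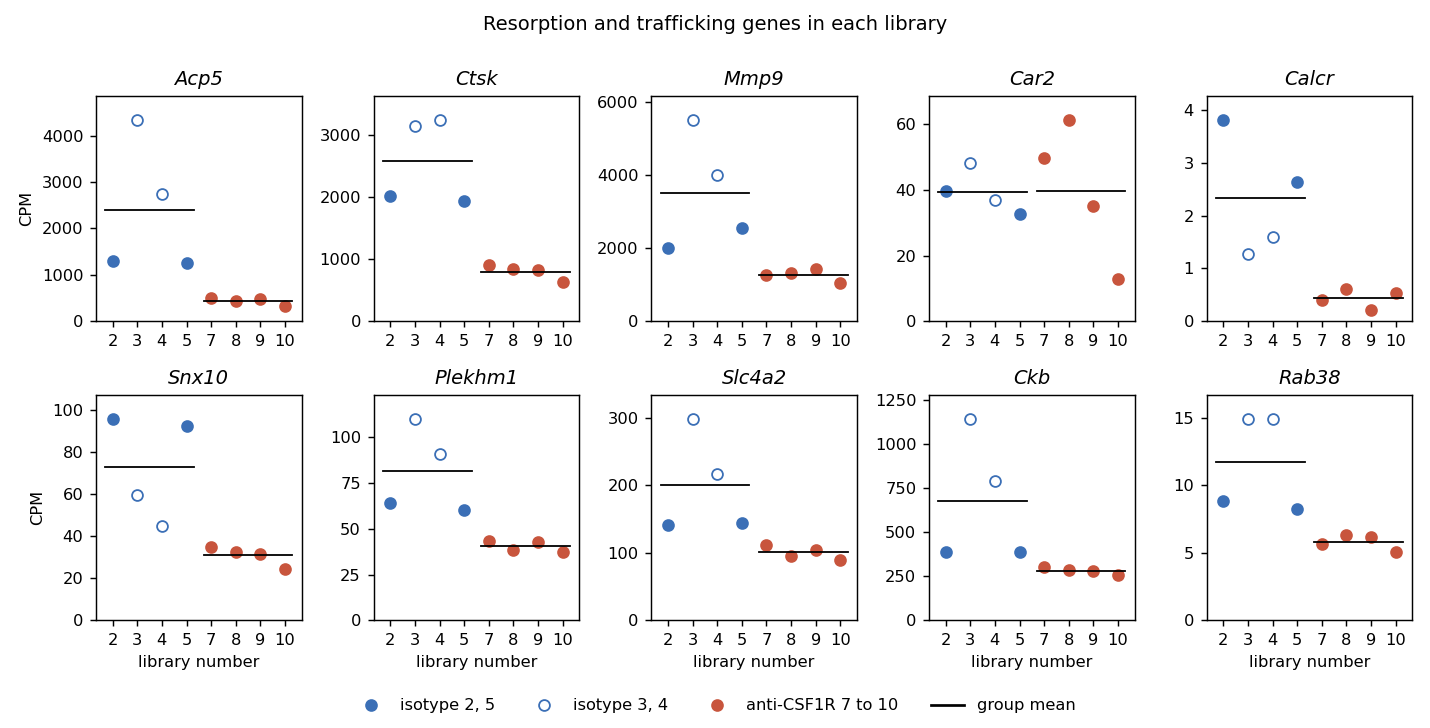
Level of each member in each library, in CPM with TMM library sizes on linear axes that start at 0; points are libraries, open symbols are isotype 3 and 4, and lines are group means. In 9 members the 4 anti-CSF1R points lie below the 4 isotype points, and in Car2 the groups overlap.

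The matrix-degrading enzymes were the most abundant members. Values by library are given here and below in number order, 2 to 5 for isotype and 7 to 10 for anti-CSF1R. Ctsk encodes cathepsin K, the main collagenase of the osteoclast. The isotype libraries held 2020, 3140, 3245 and 1930 CPM, the treated ones 902, 837, 824 and 626 CPM. Every treated library was under the lowest control, and Ctsk fell 3.24-fold in the group means (log2 fold change -1.70 ± 0.23 SE, edgeR adjusted p = 0.0198). Acp5 encodes tartrate-resistant acid phosphatase, the enzyme stained to find osteoclasts, which some macrophages also make. Its level was 1296, 4341, 2744 and 1248 CPM in the controls, against 503, 444, 472 and 321 CPM after treatment. Isotype 3 was the highest library and anti-CSF1R 10 the lowest, and the groups did not overlap. Acp5 fell 5.53-fold (log2 fold change -2.47 ± 0.42 SE, edgeR adjusted p = 0.0344). Dropping any single anti-CSF1R library ended both calls (edgeR adjusted p = 0.0820, 0.106, 0.102 and 0.0879 for Ctsk and 0.125, 0.137, 0.138 and 0.149 for Acp5 without 7, 8, 9 and 10), as did dropping isotype 4 (0.0540 and 0.0896).

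Mmp9 encodes gelatinase B, a protease of osteoclasts and of neutrophil granules. Control libraries had 2011, 5518, 3997 and 2549 CPM and treated libraries 1264, 1324, 1426 and 1055 CPM. The groups did not overlap, and the means differed 2.78-fold, but Mmp9 did not pass (log2 fold change -1.47 ± 0.31 SE, edgeR adjusted p = 0.0746). Against isotype 2 and 5 alone it passed at -0.85 (edgeR adjusted p = 0.00863), and under the offset at -1.15 (0.0133).

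The promoters of Ctsk and Acp5 are shown because these enzymes fell, and that of Snx10 because it holds the only AP-1 match among the members. Each is 250 bases before and 50 after an annotated start (RefSeq, GRCm38.p6), and the coordinates belong to that table, not to the counts. Capitals mark GAGGAA (the core bound by the myeloid factor PU.1), CATGTG (an E-box bound by MITF and its relatives) or TGANTCA (AP-1), on either strand.
Ctsk promoter, chr3:95498960-95499259, plus strand: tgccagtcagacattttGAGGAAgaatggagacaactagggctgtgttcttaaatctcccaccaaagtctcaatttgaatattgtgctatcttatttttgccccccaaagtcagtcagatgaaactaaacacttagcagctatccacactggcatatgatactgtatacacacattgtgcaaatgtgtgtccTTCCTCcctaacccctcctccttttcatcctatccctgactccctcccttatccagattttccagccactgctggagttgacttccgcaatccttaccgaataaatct
Acp5 promoter, chr9:22130549-22130848, minus strand: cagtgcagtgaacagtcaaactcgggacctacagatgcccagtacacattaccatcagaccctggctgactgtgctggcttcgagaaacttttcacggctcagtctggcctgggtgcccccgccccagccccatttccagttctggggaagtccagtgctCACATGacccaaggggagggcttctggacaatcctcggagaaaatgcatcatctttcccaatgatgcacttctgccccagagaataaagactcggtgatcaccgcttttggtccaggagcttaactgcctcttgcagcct
Snx10 promoter, chr6:51523834-51524133, plus strand: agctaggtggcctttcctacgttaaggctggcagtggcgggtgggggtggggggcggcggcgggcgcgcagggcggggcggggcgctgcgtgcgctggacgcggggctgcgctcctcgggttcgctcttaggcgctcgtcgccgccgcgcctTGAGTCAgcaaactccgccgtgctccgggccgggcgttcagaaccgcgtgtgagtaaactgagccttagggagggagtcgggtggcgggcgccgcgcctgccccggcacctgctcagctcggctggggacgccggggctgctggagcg
Ctsk holds GAGGAA beginning 233 bases before the start and its complement beginning 58 bases before it. The third listed start of Acp5 has CATGTG on the other strand 90 bases before it, and the second listed start of Snx10 has TGANTCA 98 bases before it.

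Promoter windows were found for 7 of the members, and Mmp9, Car2 and Rab38 had none in the table. GAGGAA was in a window of 3 of the 7 genes, beside 31.3% of the 27025 genes with a window, and CATGTG in 1 (15.9% of genes). TGANTCA was also in 1 of the 7 (8.97% of genes). GGAAA, the short core bound by NFAT and contained in many other sites, was in 6 of 7 (64.4% of genes). CACGTG, another E-box, and TGTGGT, a core bound by RUNX factors, were in 0 of the 7 (8.09% and 18.9% of genes). These matches describe letters in short windows and do not show binding.

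Acid and energy genes did not behave alike. Car2 encodes carbonic anhydrase 2, which makes the protons that osteoclasts secrete and is also abundant in red cells. The isotype libraries held 39.6, 48.3, 36.9 and 32.5 CPM, the treated ones 49.6, 61.3, 35.0 and 12.97 CPM. The highest and the lowest of all 8 libraries were both treated, and the group means were 39.3 ± 6.65 and 39.7 ± 20.9 CPM (SD, n = 4; log2 fold change 0.02 ± 0.39 SE, edgeR adjusted p = 0.980). With RLE factors, DESeq2 or limma-voom the sign was negative, at -0.02, -0.02 and -0.17.

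Slc4a2 encodes the chloride and bicarbonate exchanger AE2, which keeps the osteoclast's cytoplasm from turning alkaline. Its level was 141, 299, 217 and 144 CPM in the controls, against 112, 95.9, 105 and 89.5 CPM after treatment. The groups did not overlap, yet Slc4a2 did not pass (log2 fold change -0.99 ± 0.25 SE, edgeR adjusted p = 0.133). Ckb encodes brain-type creatine kinase, which regenerates ATP. Control libraries had 389, 1143, 793 and 390 CPM and treated libraries 300, 286, 283 and 259 CPM. Isotype 2 and 5 agreed closely and sat not far above the treated libraries, while isotype 3 and 4 were much higher. Ckb did not pass (log2 fold change -1.27 ± 0.34 SE, edgeR adjusted p = 0.165). Both genes passed against isotype 2 and 5 alone with smaller changes, -0.50 for Slc4a2 and -0.47 for Ckb (edgeR adjusted p = 0.0132 and 0.00797).

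The trafficking genes were lower in every treated library without passing. Snx10 encodes a sorting nexin needed for the ruffled border and mutated in human osteopetrosis. The isotype libraries held 95.8, 59.5, 45.0 and 92.4 CPM, the treated ones 35.0, 32.6, 31.8 and 24.3 CPM. Here isotype 3 and 4 were the lowest controls, and the groups did not overlap (log2 fold change -1.24 ± 0.26 SE, edgeR adjusted p = 0.0717). Plekhm1 encodes an adaptor that binds Rab7 on late endosomes and lysosomes and is also an osteopetrosis gene. Its level was 64.3, 110, 90.7 and 60.3 CPM in the controls, against 43.1, 38.6, 42.6 and 37.6 CPM after treatment, again with no overlap (log2 fold change -1.01 ± 0.21 SE, edgeR adjusted p = 0.0710). Rab38 encodes a small GTPase of lysosome-related organelles such as melanosomes. Control libraries had 8.87, 14.9, 14.9 and 8.23 CPM and treated libraries 5.68, 6.35, 6.20 and 5.03 CPM. The lowest control exceeded the highest treated library (log2 fold change -1.01 ± 0.24 SE, edgeR adjusted p = 0.106). Against isotype 2 and 5 alone all 3 passed, at -1.61, -0.62 and -0.56 for Snx10, Plekhm1 and Rab38 (edgeR adjusted p = 8.39e-04, 0.00165 and 0.0476).

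Calcr, the calcitonin receptor gene, was the least abundant member. It had 239, 67, 97 and 187 counts in the isotype libraries and 28, 46, 15 and 32 in the treated ones, which is 3.81, 1.28, 1.602 and 2.64 CPM against 0.397, 0.607, 0.216 and 0.528 CPM. The groups did not overlap, and the spread among controls ran opposite to that of Acp5, with isotype 3 and 4 lowest. Calcr fell 5.34-fold (log2 fold change -2.41 ± 0.43 SE, edgeR adjusted p = 0.0436). Dropping any single anti-CSF1R library ended the call (edgeR adjusted p = 0.159, 0.116, 0.138 and 0.148 without 7, 8, 9 and 10). So did dropping isotype 4 or 5 (edgeR adjusted p = 0.0697 and 0.0532), library size alone (0.0981) and limma-voom (0.0601). Of the calcitonin and RAMP list, which holds the related receptor Calcrl, the receptor-modifying proteins and the ligands, 0 of 7 passed in edgeR, and 1 had an unadjusted p under 0.05. Ramp1, Ramp2 and Calcrl, the most abundant, stood at 65.7 ± 35.4, 24.3 ± 6.75 and 9.38 ± 5.52 CPM with isotype. With anti-CSF1R they stood at 37.4 ± 4.71, 18.7 ± 0.657 and 15.3 ± 1.14 CPM (SD, n = 4; edgeR adjusted p = 0.278, 0.289 and 0.300).

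The isotype libraries split the members by direction. In 7 members (Acp5, Ctsk, Mmp9, Plekhm1, Slc4a2, Ckb and Rab38) isotype 3 and 4 were both above isotype 2 and 5. Calcr and Snx10, 2 members, had both below, and only Car2 overlapped. The ratio of the means of isotype 3 and 4 to those of isotype 2 and 5 was 2.79 for Acp5, 2.49 for Ckb, 2.09 for Mmp9, 1.81 for Slc4a2, 1.75 for Rab38, 1.62 for Ctsk and 1.61 for Plekhm1. It was 1.18 for Car2, 0.555 for Snx10 and 0.446 for Calcr. The longest transcript of Ckb is 61.7% GC, that of Slc4a2 58.3%, and those of Acp5, Plekhm1 and Mmp9 lie between 55.2% and 56.0%, against a median of 49.9% over tested genes. Car2, Ctsk, Rab38, Calcr and Snx10 lie at 49.1%, 48.9%, 46.7%, 46.1% and 43.7%. These transcripts have 1447 bases for Acp5, 2839 for Ckb, 3175 for Mmp9, 4264 for Slc4a2, 1577 for Rab38, 1512 for Ctsk and 5968 for Plekhm1. Car2, Snx10 and Calcr have 1788, 6512 and 3763 bases. The part of GC content or of length in the differences among isotype libraries was not tested.

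Against isotype 2 and 5 alone, 9 of the 10 members passed, where 2.38% of 17538 tested genes were called lower. The log2 fold changes of Acp5 and Ctsk were then -1.55 and -1.31 (edgeR adjusted p = 0.00199 and 9.39e-04), smaller than on all libraries, and that of Calcr was -2.88 (0.00184), larger. With the offset 7 passed (2.16% of genes called lower), and Ckb and Rab38 stood at -0.86 and -1.12 (edgeR adjusted p = 0.0530 and 0.0615). DESeq2 called the same 9 on all libraries (3.69% of genes lower). A skeletal muscle score as covariate left 0 members called in edgeR, with 7 at an unadjusted p under 0.05, and 0 genes called in all. The summed muscle markers ranged from 6.29 to 69.4 CPM with isotype and from 5.45 to 6.71 CPM with anti-CSF1R, and isotype 3 was highest. Anti-CSF1R 10 had the lowest treated level in 9 of 10 members, Calcr being the exception.

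**Figure D2:**
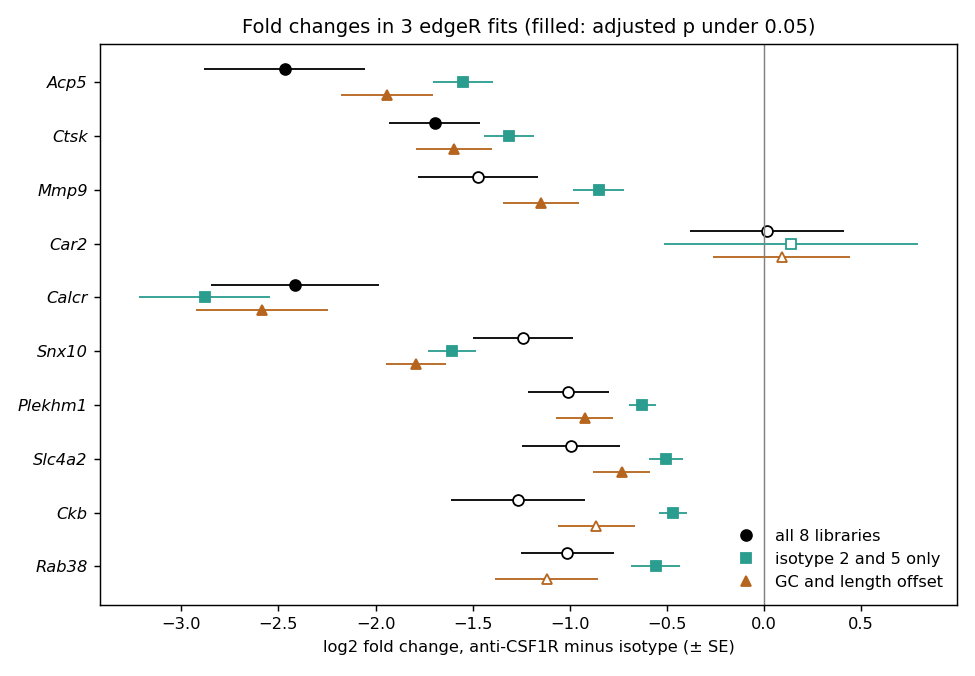
Log2 fold change (anti-CSF1R minus isotype) ± SE of each member in 3 edgeR fits, with filled symbols where the adjusted p was under 0.05. With isotype 2 and 5 only, 9 of 10 members are filled, and Snx10 and Calcr move away from 0 while Acp5, Mmp9 and Ckb move towards it.

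The split of the isotype libraries sets most of the correlation within groups, so the following values describe its size and are no separate result. After group means were subtracted, Pearson's r over 8 libraries was 0.861 to 0.988 in the 21 pairs among the 7 members high in isotype 3 and 4. It was -0.826 to -0.558 in the 14 pairs of these with Calcr or Snx10, and 0.507 between Calcr and Snx10. The 9 pairs with Car2 had r from -0.117 to 0.569. Of 10026 other genes with a mean of at least 10 CPM, those most like the members' mean z-score were Galnt6, Tyrobp, Ifi30, 6330537M06Rik, Cyth4 and Cd68 (r = 0.996 to 0.998 over 8 libraries). Tyrobp is the signalling adaptor DAP12 of osteoclasts and macrophages, Ifi30 a lysosomal thiol reductase, and Cd68 a lysosomal membrane glycoprotein of phagocytes. Galnt6 adds sugars to proteins and Cyth4 is an exchange factor for ARF GTPases. The entries Ifi30 and 6330537M06Rik had nearly equal CPM in every library, from 24.7 to 217 and from 25.1 to 218, so they may share reads. With group means subtracted the nearest were Tyrobp, Cdc25b, Lpcat1, Birc5, Get1 and Ifi30 (r = 0.991 to 0.995). Of these, Cdc25b, Lpcat1, Birc5 and Get1 had log2 fold changes of -0.29, -0.51, -0.42 and -0.50 and did not pass (edgeR adjusted p = 0.408, 0.277, 0.317 and 0.278).

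Each member was paired with related genes, called paralogs here. Acp2 was paired with Acp5 by its acid phosphatase activity and is not of the same enzyme family. Of the 19 paired genes, 0 passed in edgeR on all libraries, and 4 were lower and 1 higher at an unadjusted p under 0.05. Their median log2 fold change was -0.01. DESeq2 called 2 of them lower, beside 3.69% of genes, namely Ckm at -4.89 and Ckmt1 at -1.93 (DESeq2 adjusted p = 0.0189 and 0.00133). Without isotype 5 edgeR also called Ckmt1 (-2.10, adjusted p = 0.0456). For each, the log2 ratio of member to paralog was compared within libraries, by exact permutation (two-sided, all 70 assignments of libraries), whose smallest p is 0.0286. Of 19 ratios, 13 reached it (exact permutation p adjusted over 19 = 0.0418), with 4 of 4 treated libraries below every control. As no p can be smaller, the passing of these ratios depends on how many reach it. Without any single anti-CSF1R library 0 of them passed, when adjusted exact permutation p-values were at least 0.109.

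Among enzymes, the ratio of Acp5 to the lysosomal acid phosphatase Acp2 changed by -2.35 (exact permutation p = 0.0286). Acp2 itself stood at 60.6 ± 5.75 and 63.2 ± 2.38 CPM (SD, n = 4). Ctsk changed by -1.70 relative to Ctsl and by -0.997 relative to Ctss, the cathepsins L and S (exact permutation p = 0.0286 each). The first was -1.05 with the offset. The second was -0.64 against isotype 2 and 5 alone and did not pass without isotype 3 or 4 (exact permutation adjusted p = 0.0905 and 0.0835). Ctss, a cathepsin of antigen-presenting cells, had a log2 fold change of its own of -0.62 and no overlap between groups (edgeR adjusted p = 0.277). Mmp9 changed by -1.08 relative to the other gelatinase, Mmp2 (exact permutation p = 0.0286), which stood at 1740 ± 406 and 1392 ± 30.3 CPM.

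Among the transport and trafficking genes, Slc4a2 changed by -0.89 relative to Slc4a3 and by -1.89 relative to the bicarbonate cotransporter gene Slc4a7 (-0.60 with isotype 2 and 5 only, -0.91 with the offset). The ratio to the erythroid exchanger Slc4a1 differed by -1.11 without reaching the threshold (exact permutation p = 0.143, adjusted p = 0.170). Snx10 changed by -1.01 relative to Snx11, its closest relative among sorting nexins (-1.56 with isotype 2 and 5 only, -1.90 with the offset). Plekhm1 changed by -0.62 relative to Plekhm2, an adaptor of lysosome transport, and by -1.43 relative to Plekhm3 (-0.87 with isotype 2 and 5 only). Rab38 changed by -0.72 relative to Rab32, with which it shares work in melanosomes, and by -0.39 relative to Rab29. The first was -0.30 with isotype 2 and 5 only. The second was -0.71 with the offset and did not pass without isotype 4 (exact permutation adjusted p = 0.0835). Calcr changed by -3.21 relative to Calcrl. Apart from that to Slc4a1, each of these had an exact permutation p of 0.0286.

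The Ckb and Car2 ratios were mostly not called. Ckb to the muscle and mitochondrial kinases Ckm, Ckmt1 and Ckmt2 differed by 2.07, 0.59 and -1.54 (exact permutation p = 0.20, 0.143 and 0.143), and those paralogs had means of 2.30 CPM or less. The ratio to Ckmt2 was -0.35 against isotype 2 and 5 alone and -0.96 without isotype 3. That to Ckm was 1.32 without isotype 3, and that to Ckmt1 was 0.39 without isotype 2. The ratio of Car2 to Car3 differed by -0.58 and that to Car13 by -0.18 (exact permutation p = 0.457 and 0.886). These were -0.20 and 0.0123 against isotype 2 and 5 alone. That to Car3 was -0.88 without anti-CSF1R 8, -0.0698 without anti-CSF1R 10 and -0.32 without isotype 3. Relative to Car1, a carbonic anhydrase of red cells, Car2 changed by -0.58 (exact permutation p = 0.0286), lower in 4 of 4 treated libraries. That difference was -0.31 against isotype 2 and 5 alone and -0.33 under the offset (exact permutation adjusted p = 0.287). It was -0.39 without isotype 3 and -0.41 without anti-CSF1R 10 (exact permutation adjusted p = 0.125 and 0.155).

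**Figure D3:**
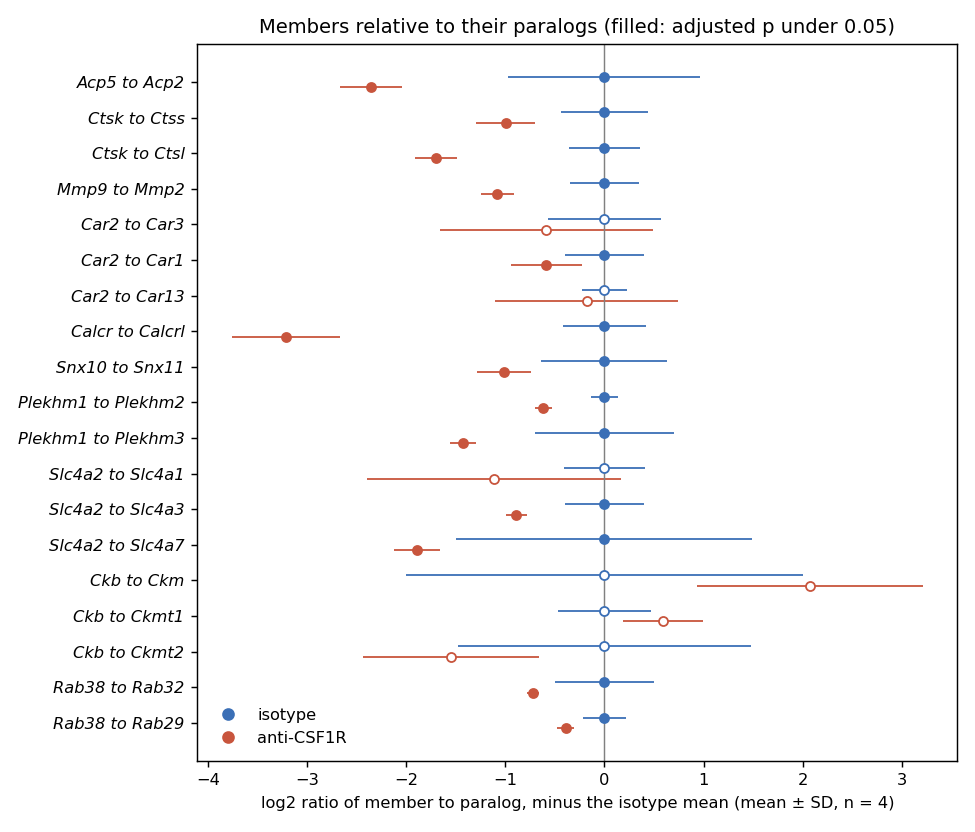
Log2 ratio of each member to a paralog, or of Acp5 to Acp2, minus the isotype mean (mean ± SD, 4 libraries per group). Symbols are filled where the exact test adjusted over 19 ratios was under 0.05. The 13 filled pairs lie to the left of 0 with anti-CSF1R, furthest for Calcr to Calcrl at -3.21.

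Ratios of the other members to Ctsk, measured within each library, did not pass. Relative to Ctsk, the log2 ratio of Plekhm1, Slc4a2, Rab38 and Car2 was higher in 4 of 4 treated libraries than in any control, by 0.70, 0.74, 0.71 and 1.49. That of Acp5 was lower in 4 of 4, by -0.62. Each had an exact permutation p of 0.0286, the smallest this test can give, and an adjusted exact p of 0.0514 over 9 ratios, so 0 of 9 passed. Whether a ratio at that smallest p passes depends on how many others reach it. The other differences were 0.56 for Ckb, 0.48 for Snx10, 0.30 for Mmp9 and -0.63 for Calcr (exact permutation adjusted p = 0.171, 0.429, 0.220 and 0.418). Under the offset 7 of 9 passed (exact permutation adjusted p = 0.0367), and leaving out isotype 3 let 6 pass (0.0429). With the offset the difference of Acp5 was -0.33, and that of Snx10 turned to -0.22. Against isotype 2 and 5 alone they were -0.25 and -0.30, and that of Calcr was -1.54.

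Cells other than osteoclasts make some of these transcripts, and their markers were followed beside them. Within the anti-CSF1R group Car2 had the order of the summed erythroid markers, highest in 8, then 7, 9 and 10. Singly, Hba-a1, Hba-a2, Hbb-bt and Epor ranked otherwise, and the remaining markers had that order. Summed erythroid levels were 897, 807, 520 and 298 CPM in libraries 8, 7, 9 and 10. In isotype 2 to 5 that sum was 489, 1138, 603 and 393 CPM. Slc4a1, the band 3 protein of red cells, stood at 134, 88.0, 68.0 and 15.3 CPM in the same order. With isotype Slc4a1 stood at 56.3, 79.4, 55.6 and 29.4 CPM in libraries 2 to 5, and Car2 was highest in 3 and lowest in 5 as well. Isotype 2 had more Car2 than isotype 4, while its erythroid sum was lower. Of 12 erythroid markers, 0 passed in edgeR, with 0 at an unadjusted p under 0.05 and a median log2 fold change of 0.10. That median was 0.50 against isotype 2 and 5 alone and 0.43 under the offset, where 0 of the 12 passed either. The part of red cells in the Car2 values was not tested.

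Mmp9 and the sum of the neutrophil markers also shared their order in the treated group, 9 highest, then 8, 7 and 10. The sums were 357, 217, 180 and 126 CPM in that order. S100a8, S100a9, Ngp, Ltf, Camp, Mpo, Prtn3 and Lcn2 had this order too. Retnlg, Mmp8 and Cxcr2 were instead highest in 8, then 7, 9 and 10, and Elane and Ly6g had other orders. With isotype the sums were 324, 367, 207 and 139 CPM in libraries 2 to 5, so isotype 5 had a low neutrophil sum and 2549 CPM of Mmp9. There Mmp9 ranked 3, 4, 5 and 2, and the neutrophil sum 3, 2, 4 and 5. The order of Mmp9 is not particular to neutrophil markers. Summed macrophage markers had it in both groups, at 275, 256, 250 and 220 CPM in anti-CSF1R 9, 8, 7 and 10. Csf1r, the largest of them, ranked 7, 9, 8 and 10. Of 13 neutrophil markers, 0 passed in edgeR, and 1 was higher at an unadjusted p under 0.05. For Ckb, summed smooth muscle markers were 247, 416, 359 and 306 CPM in isotype 2 to 5 and 261 to 324 CPM with anti-CSF1R. Among controls the sum was highest in isotype 3 and 4 as Ckb was, and so were Acta2, Tagln, Cnn1, Smtn and Des. Myh11 was lowest there, at 5.00, 1.57, 1.32 and 7.21 CPM in isotype 2 to 5. Of 12 macrophage markers, which matter for Acp5, 7 fell, beside 0.822% of all genes, and 10 had a log2 fold change below 0. Their sum went from 569 to 1001 CPM with isotype down to 220 to 275 CPM. Much of the isotype sum was Csf1r, at 238 to 549 CPM, the receptor that osteoclast precursors also need. Cd163 and Mertk stood at 0.54 each and did not pass (edgeR adjusted p = 0.299 and 0.295). The part of these cells in the Mmp9, Ckb and Acp5 values was not tested.

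**Figure D4:**
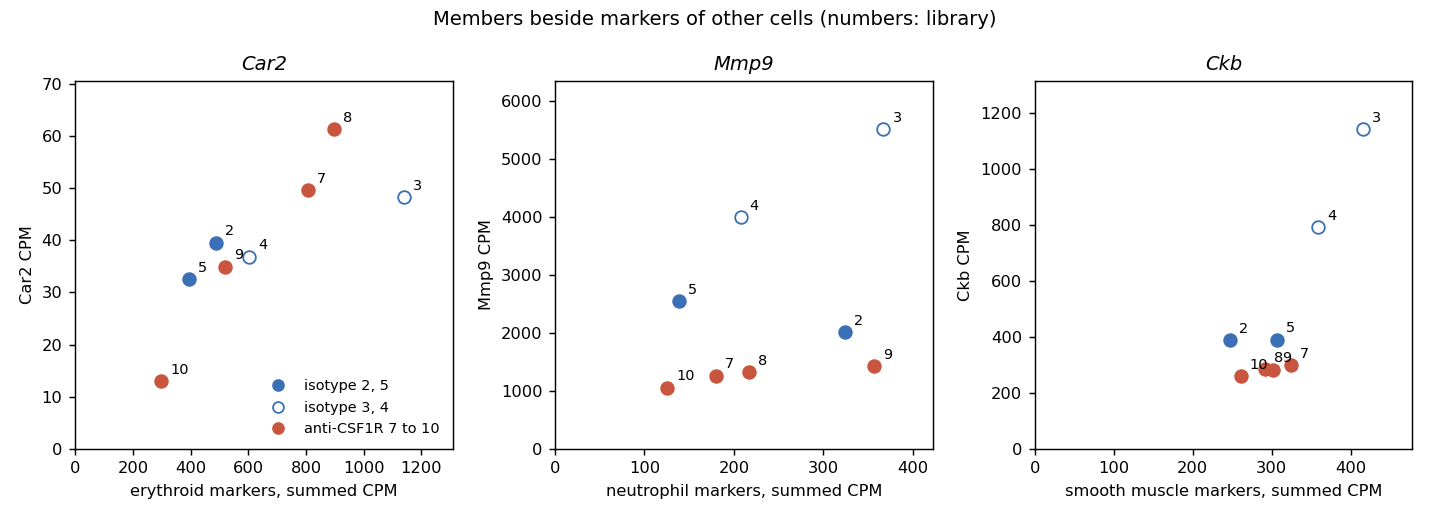
Level of Car2, Mmp9 and Ckb in each library (CPM) against the summed CPM of erythroid, neutrophil and smooth muscle markers, with numbers naming libraries and open symbols for isotype 3 and 4. Car2 has the order of the erythroid sum in the treated group. With isotype, library 2 has more Car2 than 4 (39.6 and 36.9 CPM) at a lower erythroid sum (489 and 603 CPM). In the treated group Mmp9 lies between 1055 and 1426 CPM, and the neutrophil sums between 126 and 357 CPM.

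Levels of different genes were compared as CPM per kb of the longest transcript. Which transcript of a gene was expressed was not examined, so genes with a shorter main transcript would be placed too low. With isotype the order was Ctsk at 1709 ± 466 CPM per kb (SD, n = 4), Acp5 at 1664 ± 1012, Mmp9 at 1108 ± 496, Ckb at 239 ± 128 and Slc4a2 at 47.0 ± 17.5. Then came Car2 at 22.0 ± 3.72, Plekhm1 at 13.6 ± 3.91, Snx10 at 11.2 ± 3.82, Rab38 at 7.44 ± 2.34 and Calcr at 0.620 ± 0.304 CPM per kb. The ranges of Ctsk, Acp5 and Mmp9 overlapped in that order, as did those of Car2, Plekhm1, Snx10 and Rab38 with the next. Ckb and Slc4a2 were set apart from both neighbours, and so was Calcr from Rab38. With anti-CSF1R Mmp9, at 399 ± 49.3 CPM per kb, stood above Acp5 at 301 ± 54.9, while the others kept their rank.

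**Figure D5:**
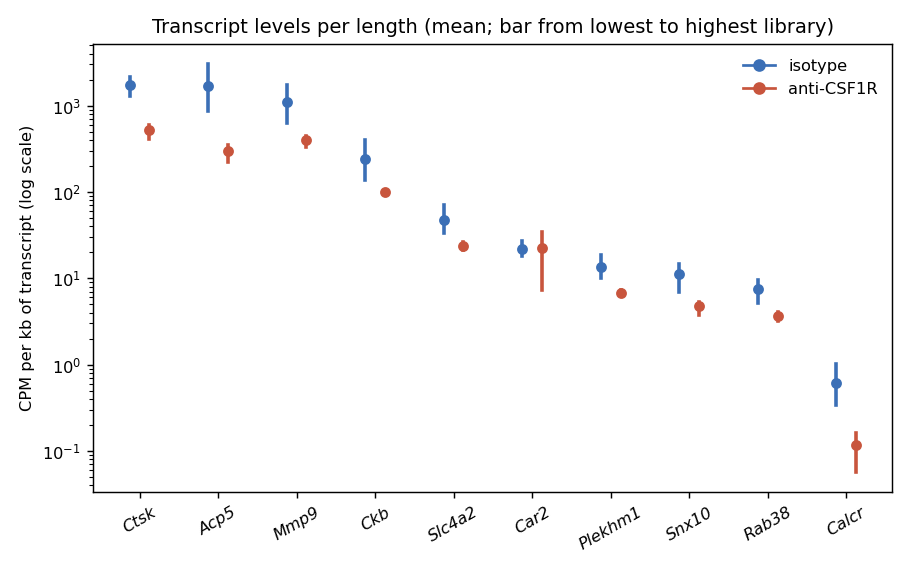
Transcript level of the 10 members in CPM per kb of transcript on a log axis, with the group mean as a point and a bar from the lowest to the highest of 4 libraries. The 3 matrix enzymes lie at 633 CPM per kb or more in every isotype library, and Calcr lies at 1.01 CPM per kb or less.

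Partner genes of the same machinery were read from lists of known roles. The lists overlap, so their counts are not separate results. Tcirg1, Clcn7 and Ostm1 are in both the acid secretion and the sclerosing bone disease lists. The latter also shares Tnfrsf11a with the osteoclast markers and Lrrk1 with the trafficking list, and Atp6v0d2 is an osteoclast marker and an acid secretion gene. Of 8 defining osteoclast markers 6 fell, beside 0.822% of all genes. These were Oscar, Dcstamp, Ocstamp, Tnfrsf11a, Nfatc1 and Siglec15, and their list's median log2 fold change was -1.67. Dcstamp and Ocstamp, which drive precursor fusion, fell 3.71-fold and 5.62-fold, and Tnfrsf11a, the RANKL receptor, 2.69-fold (edgeR adjusted p = 0.0267, 0.0267 and 0.0336). Dcstamp did not pass against isotype 2 and 5 alone (-1.46, edgeR adjusted p = 0.0589). When each of the 8 libraries was left out in turn, Dcstamp kept its call 2 times, Ocstamp and Tnfrsf11a 3 times and Oscar 6 times. Of 7 acid secretion genes 2 fell, beside 0.822% of all genes. All 7 passed with isotype 2 and 5 only, where 2.38% of genes were called lower. The list's median was -1.25 on all libraries and -0.77 with isotype 2 and 5 only. Slc9b2, a sodium and proton exchanger of osteoclasts, fell from 151 ± 46.7 to 36.2 ± 8.58 CPM (SD, n = 4; log2 fold change -2.06, edgeR adjusted p = 0.0164). Atp6v1b2, a proton pump subunit, was the other (edgeR adjusted p = 0.0267). With each library left out in turn, Slc9b2 kept its call 4 times of 8 and Atp6v1b2 3 times.

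Of 15 genes of lysosome trafficking and secretion 1 fell, beside 0.822% of all genes, and the list's median was -0.21, or -0.0816 against isotype 2 and 5 alone. It was Slc37a2, a sugar phosphate transporter of the osteoclast's secretory lysosomes. For Slc37a2 the isotype libraries held 169, 335, 290 and 163 CPM, the treated ones 53.8, 52.7, 54.8 and 32.7 CPM. Every treated library was far below the lowest control, and Slc37a2 fell 4.93-fold (log2 fold change -2.30 ± 0.29 SE, edgeR adjusted p = 0.0156), a call kept in 4 of 8 fits without 1 library. Rab7, the GTPase that Plekhm1 binds, had a log2 fold change of -0.22, and Def8, a further partner of Plekhm1, one of -0.50 (edgeR adjusted p = 0.303 and 0.278). Of 9 other genes of sclerosing bone disease 1 fell, Tnfrsf11a, beside 0.822% of all genes. Against isotype 2 and 5 alone 5 were lower and 1 higher, where 2.38% of 17538 tested genes were called lower and 119 genes higher. Tcirg1 and Clcn7, which encode the pump subunit and the chloride transporter of the ruffled border, stood at -1.25 and -1.07 (edgeR adjusted p = 0.0908 and 0.0746), and Ostm1, the partner of Clcn7, at -0.20 (0.593). Against isotype 2 and 5 alone these 3 were -0.68, -0.64 and -0.61 and passed (edgeR adjusted p = 0.00828, 8.39e-04 and 0.0102). The gene that was higher there is Tnfsf11, which encodes RANKL, the cytokine that drives osteoclast formation. Tnfsf11 was at 20.1, 8.63, 6.57 and 22.9 CPM in the controls and 40.1, 55.2, 64.8 and 64.6 CPM after treatment. Every treated library was above every control, with means 3.86-fold apart, but Tnfsf11 did not pass on all libraries (log2 fold change 1.95 ± 0.40 SE, edgeR adjusted p = 0.0710). It passed at 1.38 against isotype 2 and 5 alone, at 1.81 under the offset and at 2.25 without isotype 5 (edgeR adjusted p = 0.0351, 0.00701 and 0.0427), and at 1.93 in DESeq2 (adjusted p = 6.86e-05).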

How the data were processed

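Raw counts per gene symbol were used as the authors deposited them, in a single table of 27133 genes and 8 libraries. The submitters' processing notes list STAR 2.7.10b, featureCounts 1.6.3, GRCm38 and GRCm39, without roles. How strand, annotation and multiply mapped reads were handled is not given in the sources used here. Close paralogs and overlapping genes carry that uncertainty. Libraries were stranded poly(A) preparations of 1 µg RNA, sequenced as 101 bp pairs, per the labels. Of the counts from 1 to 10, 82.8% to 84.7% were even, as when both mates are counted, so counting noise exceeds what the totals imply. Pairs of libraries within a group differed by at least 8.43 times the squared difference counting noise gives, so none was a copy.

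Genes were kept by filterByExpr (17028), scaled by TMM and tested with edgeR 4.0.16 in R 4.3.3 (robust quasi-likelihood F-test, Benjamini-Hochberg adjustment over all genes, threshold 0.05). CPM use TMM library sizes. Ratios use log2 CPM with a prior count of 2. The scripts were tested on simulated data. Alternatives were DESeq2 1.42.0, limma-voom (limma 3.58.1), RLE factors, unscaled library sizes, other filters, isotype 2 and 5 only, an offset, halved counts, a muscle score covariate and leaving out each library. The offset used natural splines (5 degrees of freedom each) of transcript length and GC content, known for 94.0% of tested genes from their longest GENCODE M21 transcript. The members, lists and alternatives were chosen with earlier results of these data known. Named genes are the members, list members past the threshold or else the 3 most abundant of a list, all paralogs, and the 6 most alike in pattern. Slc4a1, Ostm1, Tcirg1, Clcn7, Rab7, Def8 and Tnfsf11 were also given values, for their ties to members.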

Additional observations from a re-analysis of the deposited data

How the results depend on the processing

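The number of genes called was 144 in all, and of members 3. DESeq2 called 777 genes and 9 members, isotype 2 and 5 only 536 and 9, the GC and length offset 452 and 7, and the skeletal muscle covariate 0 and 0 (855 genes at an unadjusted p under 0.05). Leaving out each library gave 0 to 260 genes and 0 to 5 members. Without anti-CSF1R 7 or 8 edgeR called 0 genes, with 1903 and 1597 at an unadjusted p under 0.05. Without isotype 2 members called were 5, and without isotype 4 they were 0. The other alternatives stayed within 1.5 times. Of ratios to paralogs 13 passed, 0 to 13 without each library. Of ratios to Ctsk 0 passed, 7 with the offset and 0 to 6 without each library. Non-overlap, in 9 members, could not be lost with isotype 2 and 5 only, since dropping controls cannot make separate groups overlap. Car2 overlapped there too. Under that rule 12.9% of tested genes lay wholly lower, beside 8.34% on all libraries. The alternative was chosen after seeing the data. No paired analysis was possible because the groups share no library number.

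The log2 fold change of Acp5 ranged over 18 alternatives from -2.71 to -1.55, of Ctsk from -1.83 to -1.31, of Calcr from -2.88 to -2.10 and of Mmp9 from -1.70 to -0.85. None of the 9 members other than Car2 reversed in these. Signs turned in the following log2 fold changes, none of them past the threshold on all libraries. Car2 was -0.0247 with RLE factors, -0.0250 with DESeq2 and -0.17 with limma-voom, and Ctsl -0.0118 and -0.0117 with the first 2. With library size alone Car13 was 0.15 and Slc4a3 0.12. With isotype 2 and 5 only Slc4a3, Cdc25b and Birc5 were 0.0756, 0.16 and 0.0768. With the offset Ramp2, Acp2, Ctsl and Snx11 were 0.0567, -0.21, -0.65 and 0.11. With the muscle covariate Acp2, Ctsl, Car13, Cdc25b and Birc5 were -0.0509, -0.00796, 0.14, 0.0942 and 0.0332. Leaving out each library gave -0.27 to 0.308 for Car2, -0.00218 to 0.0884 for Acp2, -0.0265 to 0.0740 for Ctsl, -0.11 to 0.0350 for Car13 and -0.185 to 0.0154 for Slc4a3. The log2 ratio of Car2 to Car13 was 0.35 with the offset and -0.461 to 0.25 without each library, and that of Snx10 to Ctsk was -0.22 with the offset. The causes were not tested. Among the members depth limits Calcr most, at 15 to 46 counts in the treated libraries, and the paralogs Ckm, Ckmt1 and Ckmt2 had lower mean CPM there.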

Other observations

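The 10 members together took 0.599%, 1.23%, 1.02% and 0.680% of all counts in isotype 2 to 5 and 0.335%, 0.343%, 0.337% and 0.256% in anti-CSF1R 7 to 10. The range did not overlap between the groups, and most of it is Ctsk, Mmp9 and Acp5. Of the 19 paired genes, none of which passed in edgeR on all libraries, 5 lay wholly lower with anti-CSF1R, beside 8.34% of tested genes. These were Ctss, Ckm, Ckmt1, Rab32 and Rab29. Rab29 averaged 15.9 ± 5.22 CPM in isotype libraries and 10.4 ± 1.06 CPM in treated ones (SD, n = 4). Rab32 ranged from 8.70 to 10.6 CPM with isotype and from 7.23 to 8.68 CPM with anti-CSF1R.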
